A study of Mus musculus with 22 samples.

Results

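Trp53, Mdm2, Mdm4, Ccng1 and Ppm1d are the gene for the tumour suppressor p53 and 4 genes of the feedback loops that limit it. They were taken by symbol as 5 of the 24819 genes measured, and each had a row in both deposited expression tables. RNA had been sequenced from 22 libraries of E14, an established mouse embryonic stem cell line that was kept with leukemia inhibitory factor on gelatin, at 3 days after transfection of small interfering RNAs (siRNAs). Every library received a pair of siRNAs. The control, written siNT here, is siNT given with siNT; siRpl14, siRpl11 and siDux were each given with siNT; siRpl14+siRpl11 and siRpl14+siDux are the double knockdowns. All libraries come from this 1 line. The labels do not say what NT stands for. They do not say either whether the replicates are separate cultures, so the spread that the p-values rest on may be technical. Set 1 crosses siRpl14 with siRpl11, with 2 libraries for the control, for either knockdown and for both together. Set 2, in the same table, crosses siRpl14 with siDux in the same way with 1 library a group. Set 3, the other table, crosses siRpl14 with siDux with 2 libraries a group, and adds 1 library of siRpl11 and 1 of siRpl14+siRpl11. The sets were told apart by table and title style.

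p53 is a transcription factor that is kept low because Mdm2, a ubiquitin ligase, binds it and marks it for degradation. Mdm2 is itself a gene that p53 switches on, so they form a negative feedback loop. When ribosome assembly is disturbed, free ribosomal proteins, Rpl11 with Rpl5 above all, bind Mdm2 and keep it from acting on p53; this is known as the nucleolar or ribosomal stress response. Rpl14 and Rpl11 both belong to the large ribosomal subunit. Mdm4 is a relative of Mdm2 that binds the activation domain of p53. Ccng1 encodes cyclin G1, a p53 target that acts with protein phosphatase 2A on Mdm2, and Ppm1d encodes the phosphatase Wip1, a p53 target that removes activating phosphates from p53 and its kinases. Dux is a transcription factor of the early embryo. The series title pairs siRpl14 with siDux or siRpl11, and the comparisons below ask what each knockdown, alone or added to siRpl14, did to the RNA of these 5 genes.

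Because Mdm2, Ccng1 and Ppm1d are known p53 targets and moved together below, the bases before each gene's start were searched for the p53 consensus decamer, the 10-base unit that p53 binds in pairs, which reads the same on both strands. A match was found within 250 bases upstream of the start for 4 of the 5 genes, and in neither of the Mdm4 windows. Across all RefSeq start windows 7.13% held a match, as did 8.20% of genes with a window. The stretches that hold it, of 60 bases each and read 5′ to 3′ on the gene's strand, are shown with the decamer in capitals, from RefSeq on GRCm38.p6; the expression files use another build, mm9.
Trp53, chr11:69580259-69580318, plus strand: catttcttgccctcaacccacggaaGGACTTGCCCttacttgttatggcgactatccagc
Mdm2, chr10:117710910-117710969, minus strand: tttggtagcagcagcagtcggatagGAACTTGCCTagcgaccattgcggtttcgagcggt
Ccng1, chr11:40755437-40755496, minus strand: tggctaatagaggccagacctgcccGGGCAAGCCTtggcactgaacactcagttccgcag
Ppm1d, chr11:85311097-85311156, plus strand: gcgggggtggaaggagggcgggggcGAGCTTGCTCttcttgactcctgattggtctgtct
The decamer lies 75 to 66 bases upstream of the start in Trp53, 186 to 177 in Mdm2, 185 to 176 in Ccng1 and 132 to 123 in Ppm1d. Such a match is a description of the sequence and not a measured binding site.

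The values are FPKM, which scale fragments by transcript length and library size. Read counts were not used here, so the depth is unknown, but 30.1 to 32.1% of genes were listed at 0 in sets 1 and 2 and 50.5 to 56.2% in set 3, which resolves low values less finely. Of the siRNA targets, Rpl14 stood at 60.2% and 27.1% of the siNT mean in the siRpl14 libraries of set 1 (replicates 1 and 2) and at 15.6% and 35.3% with siRpl14+siRpl11. Rpl11 stood at 34.9% and 15.2% in the siRpl11 libraries and at 13.2% and 33.4% in the double knockdown. So the knockdown depth differed between replicates, and siRpl14 replicate 1 of set 1 kept the most Rpl14 of any siRpl14 library. The 10 embryonic stem cell markers were present in every library, with a summed level in sets 1 and 2 of 7675 to 9130 FPKM in siNT, 5044 to 6157 in siRpl14, 7032 to 7371 in siRpl11 and 6214 to 6358 in siRpl14+siRpl11, and of 4795 in siRpl14+siDux. By limma against siNT in set 1, 1 of the 10 rose and 4 fell with siRpl14. With siRpl11 2 rose and 4 fell, and with both 2 rose and 7 fell. Of all genes, 31.5%, 44.3% and 41.6% passed in these comparisons. Among those, 2191 rose and 1631 fell with siRpl14, 1938 rose and 3439 fell with siRpl11, and 2008 rose and 3035 fell with both. The part of the marker changes in the results below was not tested. The 7 fibroblast markers summed to 10.8 to 15.5 FPKM in siNT and 4.58 to 8.95 in siRpl14 of sets 1 and 2, with 4.64 to 6.05 in siRpl14+siRpl11 and 4.96 to 5.90 in siRpl11; Postn and Dcn were at 0 in all groups of both tables. Thy1, the 1 of the 7 that passed the filter on low values, fell against siNT in each of these knockdowns of set 1 (log2 change -1.19 with siRpl14, -1.37 with siRpl11 and -1.40 with both; limma, adjusted p = 0.0103, 0.00477 and 0.00519). In such bulk libraries, fewer cells of a type and less RNA per cell cannot be told apart.

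Of the 5 genes, Trp53, Mdm2 and Ppm1d rose with either knockdown against siNT in set 1, Ccng1 rose with siRpl14, and Mdm2 and Ccng1 differed between siRpl14 and siRpl11. siRpl14 gave the largest mean of Mdm2, Ccng1 and Ppm1d in set 1, and siRpl11 gave the largest mean of Trp53. The double knockdown had Trp53 and Mdm2 levels whose ranges overlapped those of siRpl11 alone. Mdm4 was the only one of the 5 that passed in no comparison. In limma's test across all genes of set 1 (adjusted p under 0.05), 4 of 5 passed in siRpl14 against siNT, where 31.5% of all tested genes did. The count was 3 of 5 in siRpl11 against siNT (44.3% of all genes), and 3 of 5 in siRpl14+siRpl11 against siNT (41.6%). The median log2 fold change of the 5 genes was 1.00, 0.50 and 0.61 in these comparisons, against 0.03, -0.11 and -0.07 over all genes tested. The comparisons share the siNT libraries. All 5 genes passed the filter on low values in both fits. Median-ratio rescaling of the libraries moved the median of all genes from -0.11 to 0.04 in siRpl11 against siNT, from 0.12 to -0.04 in siRpl14 against siRpl11 and from -0.09 to 0.02 in siRpl14+siRpl11 against siRpl14. Under it every gene but Mdm4 kept its direction in these comparisons; the Mdm4 differences in the last pair, neither of which passed, turned sign (0.10 to -0.09, and -0.05 to 0.08).

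**Figure D1:**
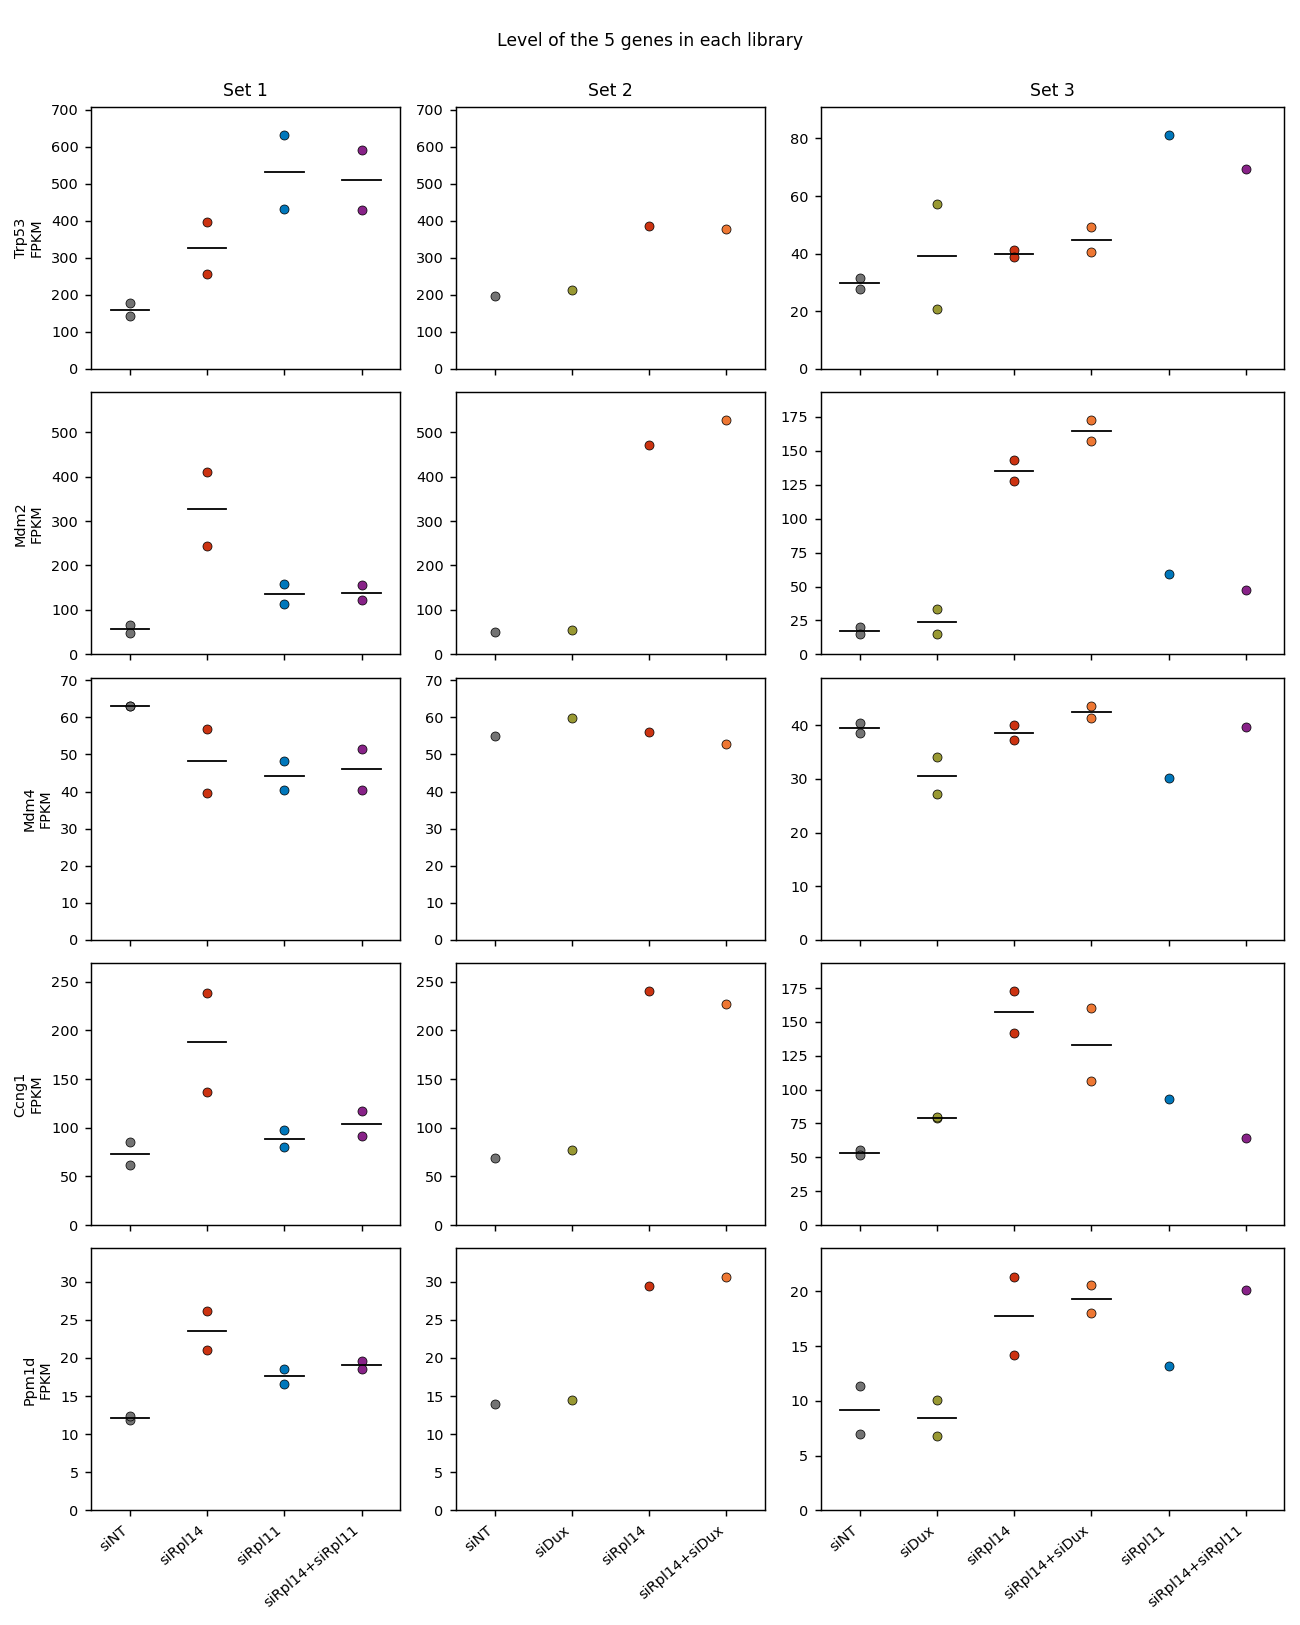
Level of each gene (rows, FPKM on a linear axis from 0) in each library of sets 1, 2 and 3 (columns); points are libraries and black lines are means of 2 libraries, and the axis range of set 3 differs from that of sets 1 and 2. Mdm2 and Ccng1 are highest in the libraries with siRpl14 and without siRpl11 in all 3 sets, while Trp53 is highest where siRpl11 was given in sets 1 and 3.

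Trp53 is the gene whose protein drives this loop. In set 1 its level was 143 and 177 FPKM in siNT, 257 and 396 with siRpl14, 432 and 631 with siRpl11, and 589.6 and 428 with siRpl14+siRpl11. The 4 libraries with siRpl11 were therefore all above the siRpl14 libraries, and these above siNT; siRpl11 and siRpl14+siRpl11 overlapped. As group means, Trp53 went from 159.8 ± 23.9 FPKM in siNT to 327 ± 98.4 with siRpl14, 531 ± 141 with siRpl11 and 509 ± 114 with both (SD, n = 2). It rose with siRpl11 by 1.71 ± 0.26 on the log2(FPKM + 1) scale (SE; limma, adjusted p = 0.00371) and with siRpl14+siRpl11 by 1.65 ± 0.26 (limma, adjusted p = 0.00461). It rose with siRpl14 by 1.00 ± 0.26 (limma, adjusted p = 0.0254). This last call was lost without siNT replicate 1 (limma, adjusted p = 0.156), siNT replicate 2 (0.0713) or siRpl14 replicate 2 (0.156). Between siRpl14 and siRpl11 the difference was -0.71 ± 0.26, and between siRpl14+siRpl11 and siRpl14 it was 0.65 ± 0.26; neither passed (limma, adjusted p = 0.117 and 0.188).

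The other sets gave Trp53 values for single libraries or fewer calls. In set 2 Trp53 was at 197 FPKM in the siNT library and 213 in that with siDux, against 387 after siRpl14 and 379 with siRpl14+siDux, so both libraries with siRpl14 were higher. Its set 3 levels were 27.9 and 31.4 FPKM in siNT, 57.4 and 20.8 with siDux, 41.3 and 38.8 with siRpl14, 40.5 and 49.3 with siRpl14+siDux, 81.1 with siRpl11 and 69.4 with siRpl14+siRpl11. There too the 2 libraries with siRpl11 were the highest of the set, and the siDux replicates lay on either side of siNT. In set 3 the siRpl14 difference was 0.42 ± 0.43 (SE; limma, adjusted p = 0.746). A processed pseudogene of Trp53 and another of Mdm4 are annotated in GENCODE M21, and reads that these share with the parent gene were not separated here, so the levels of both genes are uncertain to that extent.

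Mdm2, the ligase that holds p53 down, had the largest response of the 5 to siRpl14. In set 1 its level was 66.0 and 47.7 FPKM in siNT, 244 and 410.3 with siRpl14, 114 and 159 with siRpl11, and 156 and 121 with siRpl14+siRpl11. The siRpl14 libraries were above all others, the 4 libraries with siRpl11 lay between and overlapped each other, and siNT was lowest. Mdm2 rose with siRpl14 by 2.48 ± 0.28 (SE; limma, adjusted p = 0.00182), from 56.8 ± 13.0 to 327 ± 118 FPKM (SD, n = 2), and that call held without any 1 library. It rose by 1.25 ± 0.28 with siRpl11 (limma, adjusted p = 0.0102) and by 1.28 ± 0.28 with siRpl14+siRpl11 (limma, adjusted p = 0.0107). The siRpl11 call was lost without siNT replicate 2 (limma, adjusted p = 0.0726) or siRpl11 replicate 2 (0.0643), and the double knockdown call without siNT replicate 2 (0.0737) or siRpl14+siRpl11 replicate 1 (0.0679).

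Adding siRpl11 to siRpl14 lowered Mdm2. In siRpl14+siRpl11 against siRpl14 it fell by 1.20 on the log2 scale, with an SE of 0.28 (limma, adjusted p = 0.0419). Of the 5 genes it was the 1 that passed, where 7.24% of all genes passed. Against siRpl11 alone, siRpl14 alone had Mdm2 higher by 1.23 ± 0.28 (limma, adjusted p = 0.0265), and 2 of the 5 genes passed there against 13.4% of all genes. The fall is the less secure of these results. It was lost without siNT replicate 1 (limma, adjusted p = 0.0756), siNT replicate 2 (0.0757), siRpl14 replicate 2 (0.185), siRpl14+siRpl11 replicate 1 (0.105) or replicate 2 (0.128), and in 4 other settings given at the end. The siRpl14 against siRpl11 call was lost under median-ratio rescaling (limma, adjusted p = 0.0536) and without siRpl11 replicate 1 (limma, adjusted p = 0.102), siRpl11 replicate 2 (0.0510) or siRpl14 replicate 2 (0.118). Ppm1d passed there without siRpl14 replicate 1 (0.54; limma, adjusted p = 0.0497).

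The interaction term asks whether siRpl14 and siRpl11 together did what the sum of the single knockdowns would. For Mdm2 it was -2.44 ± 0.39 (SE; limma, adjusted p = 0.0258), so the double knockdown was lower than the sum on the log scale. Mdm2 was the 1 of 5 that passed, against 4.49% of all genes. The values of Trp53 (-1.06), Ccng1 (-1.08) and Ppm1d (-0.79) were negative too and did not pass (limma, adjusted p = 0.115, 0.113 and 0.0514), and that of Mdm4 was 0.45 (0.281). The Mdm2 term was lost without siNT replicate 1 (limma, adjusted p = 0.101), siNT replicate 2 (0.104), siRpl11 replicate 1 (0.0553) or 2 (0.0906), siRpl14 replicate 2 (0.0747) or siRpl14+siRpl11 replicate 2 (0.0829), and in 1 other setting given at the end. With sets 1 and 2 in 1 fit, the terms of Ccng1 (-1.25; limma, adjusted p = 0.0431) and Ppm1d (-0.83; 0.0150) passed as well, as they did without siRpl14 replicate 1 (0.0354 and 0.0282).

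In the other sets Mdm2 had the same order. In set 2 it was at 51.4 FPKM in the siNT library and 55.7 in that with siDux, against 472 after siRpl14 and 526 with siRpl14+siDux. Its set 3 levels were 20.2 and 14.9 FPKM in siNT, 33.7 and 14.7 with siDux, 143 and 128 with siRpl14, 157 and 172 with siRpl14+siDux, 59.1 with siRpl11 and 47.5 with siRpl14+siRpl11. In both sets every library with siRpl14 and without siRpl11 was above all others, and in set 3 the 2 libraries with siRpl11 lay between those and the siNT and siDux libraries. In set 3 Mdm2 rose with siRpl14 by 2.89 ± 0.37 (SE; limma, adjusted p = 0.0229), 1 of the 2 members that passed there, while 0.66% of all genes did. The call was lost without either siNT library (limma, adjusted p = 0.0800 and 0.153), either siRpl14 library (0.154 and 0.145) or either siRpl14+siDux library (0.0540 and 0.0573), and with plain moderation (0.0765). With all 10 libraries of set 3 in 1 fit, in which each lone library is assumed to vary like the other groups, Mdm2 differed from siNT by 1.71 ± 0.45 with siRpl11 and by 1.40 ± 0.45 with siRpl14+siRpl11 (limma, adjusted p = 0.271 and 0.349). None of the 5 genes passed in that fit with siRpl11 or with siRpl14+siRpl11 against siNT. Each of these knockdown groups rests on 1 library. Against siRpl14, the double knockdown library was at -1.49 ± 0.45 for Mdm2 and -1.27 ± 0.29 for Ccng1, and neither passed.

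**Figure D2:**
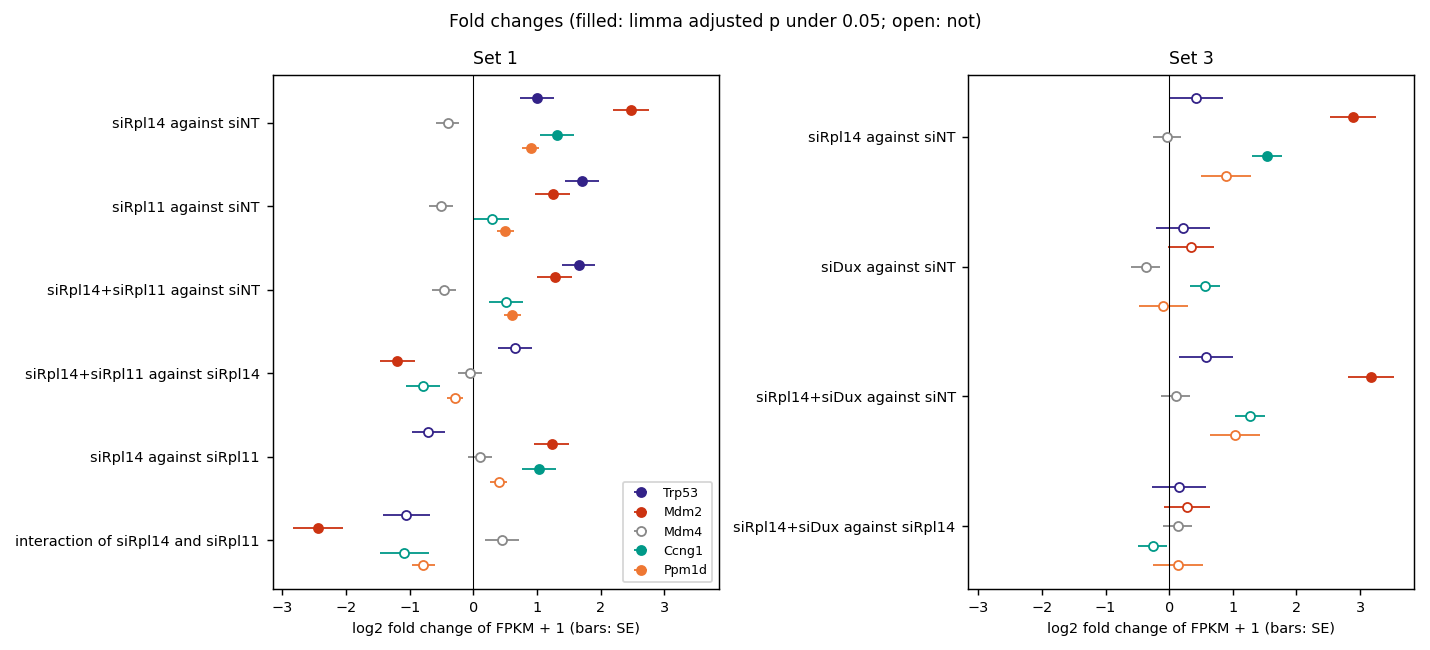
Log2 fold change of FPKM + 1 (horizontal axis) for each gene in each comparison of set 1 (left) and set 3 (right); bars are SE and filled points passed at an adjusted p under 0.05 in limma. Mdm2 has the largest change with siRpl14 in both sets (2.48 and 2.89) and is the filled point below 0 when siRpl11 was added to siRpl14 and in the interaction.

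Mdm4, the second inhibitor of p53, passed nowhere in the main tests. Its level in set 1 was 63.1 and 63.1 FPKM in siNT, 39.5 and 56.8 with siRpl14, 40.4 and 48.2 with siRpl11, and 51.5 and 40.4 with siRpl14+siRpl11. All 6 knockdown libraries of set 1 were below both siNT libraries and overlapped each other. The differences from siNT were -0.41 ± 0.19, -0.51 ± 0.19 and -0.46 ± 0.19 (SE; limma, adjusted p = 0.128, 0.0573 and 0.0800). They passed under quantile normalization (limma, adjusted p = 0.0496, 0.0319 and 0.0416), and the siRpl11 and double knockdown differences also passed without siRpl14 replicate 1 (0.0248 and 0.0360) or 2 (0.0250 and 0.0361), as the siRpl11 difference did without siRpl14+siRpl11 replicate 1 (0.0496) or 2 (0.0493). Set 2 did not show the lower level, with 55.1 FPKM in the siNT library and 60.0 in that with siDux, against 56.0 after siRpl14 and 52.97 with siRpl14+siDux. In set 3 Mdm4 was at 38.6 and 40.4 FPKM in siNT, 34.0 and 27.2 with siDux, 37.2 and 40.1 with siRpl14, 41.4 and 43.7 with siRpl14+siDux, 30.2 with siRpl11 and 39.6 with siRpl14+siRpl11. The siRpl14 difference there was -0.03 ± 0.23 (SE; limma, adjusted p = 0.992), and its sign turned under median-ratio rescaling (0.02).

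Ccng1, for cyclin G1, moved much like Mdm2 with siRpl14 but less with siRpl11. Its level in set 1 was 84.9 and 61.6 FPKM in siNT, 137 and 238 with siRpl14, 79.9 and 97.7 with siRpl11, and 117 and 91.5 with siRpl14+siRpl11. Only the siRpl14 libraries stood clear of the rest of set 1; siNT, siRpl11 and the double knockdown overlapped in turn. Ccng1 rose with siRpl14 by 1.31 ± 0.27 (SE; limma, adjusted p = 0.0115), from 73.3 ± 16.4 to 188 ± 71.5 FPKM (SD, n = 2). It was at 0.28 ± 0.27 with siRpl11 and 0.51 ± 0.27 with both (limma, adjusted p = 0.409 and 0.156), and siRpl14 was above siRpl11 by 1.02 ± 0.27 (limma, adjusted p = 0.0431). The siRpl14 call was lost without siNT replicate 1 (limma, adjusted p = 0.0501), siNT replicate 2 (0.0755) or siRpl14 replicate 2 (0.0616), and the difference from siRpl11 without either siNT library (0.0669 and 0.0671), either siRpl11 library (0.142 and 0.102) or siRpl14 replicate 2 (0.161), and in 4 other settings given at the end. In siRpl14+siRpl11 against siRpl14 it was at -0.80 ± 0.27 (limma, adjusted p = 0.124) and passed without siRpl14 replicate 1 (-1.19; 0.0341).

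Outside set 1, Ccng1 again followed siRpl14. In set 2 it was at 68.5 FPKM in the siNT library and 77.6 in that with siDux, against 240.2 after siRpl14 and 227 with siRpl14+siDux. Its set 3 levels were 55.3 and 51.5 FPKM in siNT, 78.9 and 79.7 with siDux, 173 and 142 with siRpl14, 160.2 and 106 with siRpl14+siDux, 92.8 with siRpl11 and 64.0 with siRpl14+siRpl11. All 4 libraries with siRpl14 and without siRpl11 were above the other 6 of set 3. It rose there with siRpl14 by 1.53 ± 0.23 (SE; limma, adjusted p = 0.0428), lost without either siDux library (limma, adjusted p = 0.0904 and 0.0920), either siNT library (0.160 and 0.209) or either siRpl14 library (0.234 and 0.164), with no filter (0.0529) and with plain moderation (0.172).

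Ppm1d, for the phosphatase Wip1, had the lowest level of the 5 in each table and replicates that lay close together in set 1. Its level there was 11.8 and 12.4 FPKM in siNT, 21.1 and 26.1 with siRpl14, 16.6 and 18.6 with siRpl11, and 19.6 and 18.6 with siRpl14+siRpl11. Every knockdown library was above siNT, the siRpl14 libraries were highest, and siRpl11 and siRpl14+siRpl11 overlapped. Ppm1d rose by 0.90 ± 0.13 with siRpl14, 0.50 ± 0.13 with siRpl11 and 0.61 ± 0.13 with both (SE; limma, adjusted p = 0.00382, 0.0164 and 0.00951). The siRpl14 call held without any 1 library. The siRpl11 call was lost without siNT replicate 1 (limma, adjusted p = 0.0868), siNT replicate 2 (0.0575) or siRpl11 replicate 2 (0.111), and the double knockdown call without siNT replicate 1 (0.0627) or siRpl14+siRpl11 replicate 1 (0.0664).

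In set 2 Ppm1d was at 13.9 FPKM in the siNT library and 14.4 in that with siDux, against 29.4 after siRpl14 and 30.7 with siRpl14+siDux. Its set 3 levels were 11.3 and 6.98 FPKM in siNT, 6.82 and 10.1 with siDux, 21.3 and 14.1 with siRpl14, 20.6 and 18.0 with siRpl14+siDux, 13.2 with siRpl11 and 20.1 with siRpl14+siRpl11. All 5 libraries of set 3 with siRpl14 were above both siNT and both siDux libraries. The siRpl14 difference was 0.89 ± 0.39 and did not pass (limma, adjusted p = 0.413).

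None of the 5 genes passed a test of siDux in set 3, alone or added to siRpl14. In siDux against siNT 0 of 5 genes passed in limma (0.00758% of all genes did), with 1, Ccng1, at an unadjusted limma p under 0.05. In siRpl14+siDux against siRpl14, 0 of 5 passed and 0 had an unadjusted limma p under 0.05, where 0.0152% of all genes passed. These shares are at the adjusted threshold. The share of all genes under an unadjusted p of 0.05 is not given here. The differences were 0.28 ± 0.37 for Mdm2, 0.15 ± 0.43 for Trp53, -0.26 ± 0.23 for Ccng1, 0.14 ± 0.39 for Ppm1d and 0.13 ± 0.23 for Mdm4 (log2, SE). Against siNT, siRpl14+siDux raised Mdm2 by 3.17 ± 0.37 (limma, adjusted p = 0.0100), the 1 of 5 genes that passed, with 1.02% of all genes passing. That call was lost without either siNT library (limma, adjusted p = 0.0518 and 0.0857) or either siRpl14+siDux library (0.0517 and 0.0707). Ccng1 was at 1.27 ± 0.23 (limma, adjusted p = 0.0564) and passed under a stricter filter (0.0387), median-ratio rescaling (0.0418) and quantile normalization (0.0493). Dux itself was listed at 0 in all libraries of set 3 except siRpl14 replicate 2 (3.03 FPKM), so its knockdown could not be checked there. In set 2 it was at 0.306 FPKM in the siNT library and 0.0546 in that with siDux, against 1.495 after siRpl14 and 0.168 with siRpl14+siDux.

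The unequal response of ligase and target can be read within a library as the ratio of Mdm2 to Trp53 FPKM, which no difference in library scaling alters. In set 1 this ratio was 0.366 ± 0.136 in siNT, 0.993 ± 0.0608 with siRpl14, 0.258 ± 0.00881 with siRpl11 and 0.274 ± 0.0139 with siRpl14+siRpl11 (SD, n = 2). In set 2 it was 0.261 in siNT and 0.262 with siDux, against 1.22 after siRpl14 and 1.39 with siRpl14+siDux. Across sets 1 and 2 the 4 libraries with siRpl14 and without siRpl11 ran from 0.950 to 1.39, the 4 with siRpl11 from 0.252 to 0.284, and the 4 with siNT or siDux alone from 0.261 to 0.462. The ratio with siRpl14 and no siRpl11 thus lay clear of the others, while the libraries with siRpl11 overlapped the controls although both genes were higher in them.

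Set 3 had the same arrangement at other levels. Its ratio was 0.475 and 0.725 at the extremes of the siNT and siDux libraries, 3.29 to 3.88 over the 4 libraries with siRpl14 and without siRpl11, and 0.728 and 0.685 in the siRpl11 and siRpl14+siRpl11 libraries. The ratio of Mdm2 to Mdm4, the 2 inhibitors, separated the siRpl11 libraries from the controls as well. In set 1 it was 0.900 ± 0.206 in siNT, 6.70 ± 0.741 with siRpl14, 3.06 ± 0.336 with siRpl11 and 3.01 ± 0.0144 with both (SD, n = 2). In sets 1 and 2 together it ran from 0.755 to 1.05 with siNT or siDux alone, from 2.82 to 3.30 with siRpl11 and from 6.17 to 9.94 with siRpl14 and no siRpl11. These ratios were not tested.

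**Figure D3:**
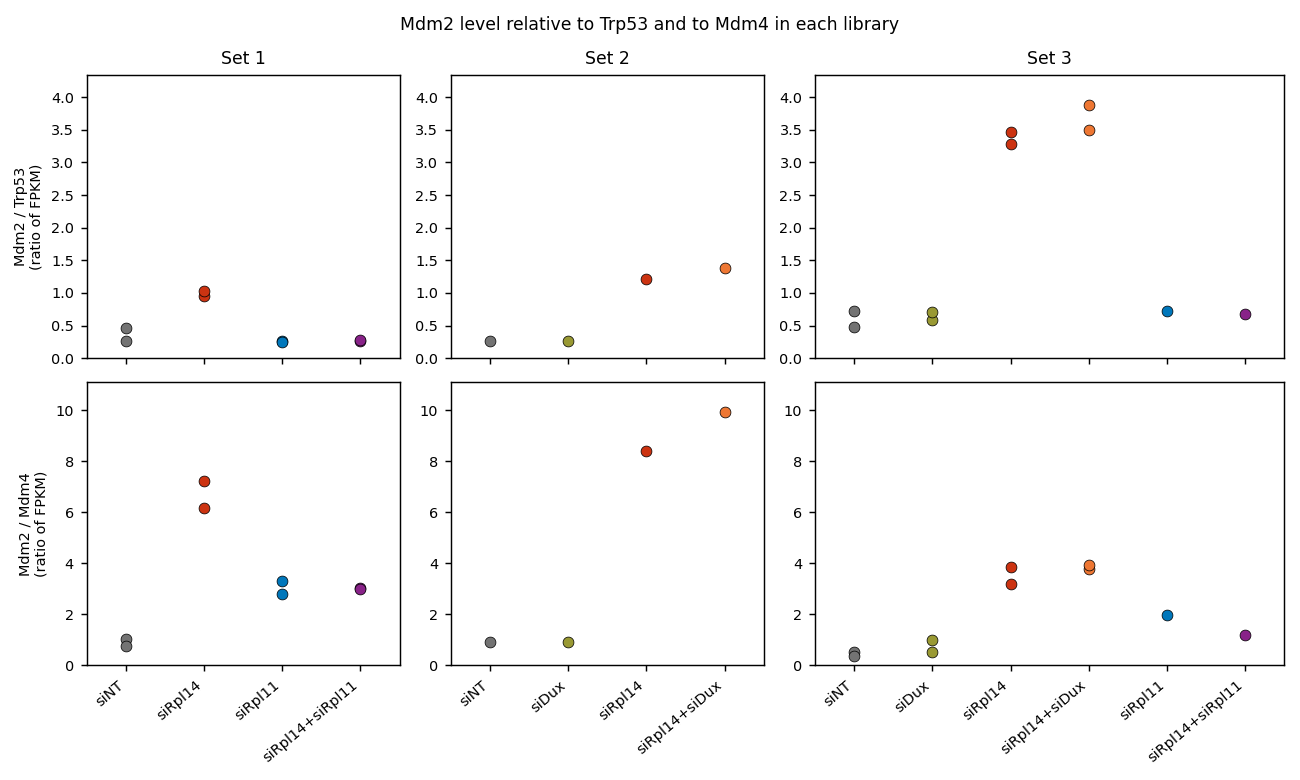
Ratio of Mdm2 to Trp53 FPKM (top) and of Mdm2 to Mdm4 FPKM (bottom) in each library (points) of sets 1, 2 and 3, on linear axes from 0. The libraries with siRpl14 and without siRpl11 are the highest in every panel, and those with siRpl11 lie among or near siNT in the top row and between siNT and siRpl14 in the bottom row.

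The levels were set against the amount of target RNA left in each library. In set 1 the replicate with less target had more of all 5 genes in each of the 3 knockdown groups. Mdm4 was among them although all its knockdown libraries there were below siNT. With siRpl14, the library at 27.1% of the siNT Rpl14 had 410.3 FPKM of Mdm2 and that at 60.2% had 244. With siRpl11, Trp53 was at 395% of siNT in the library with 15.2% of the Rpl11 and at 270.0% in that with 34.9%. With both siRNAs, Trp53 was at 369% at 13.2% of the Rpl11 and at 268% at 33.4%. Sets 1 and 3 gave 6 comparisons of replicates for a knocked-down target. The siRpl14+siRpl11 pair counts once for Rpl14 and once for Rpl11. The library with less target was higher for Mdm4 in 6, for Mdm2 and Trp53 in 5, and for Ccng1 and Ppm1d in 4. The exceptions were all in set 3. There Trp53, Mdm2, Ccng1 and Ppm1d were lower with less Rpl14 in the siRpl14 pair (302 and 329 FPKM of Rpl14). Ccng1 and Ppm1d were lower in the siRpl14+siDux pair (279 and 353). The library with less target was replicate 2 with siRpl14 and with siRpl11, and replicate 1 with both. Over all genes kept, deviations of same-numbered libraries of set 1 correlated at r = 0.50 between siRpl14 and siRpl11. Against siRpl14+siRpl11 they stood at -0.49 and -0.50, so genes at large shared this order. The share of all genes higher with less target is not given here. The replicates of set 1 differ in other respects too, and the part of these in the order was not tested.

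Libraries of set 1 with alike remaining Rpl11 had alike Trp53 levels whether or not siRpl14 was present. The siRpl11 library with 34.9% of the Rpl11 had 432 FPKM and the siRpl14+siRpl11 library with 33.4% had 428. This was not particular to Trp53. In the same libraries Mdm2 was at 114 and 121 FPKM and Mdm4 at 40.4 and 40.4, with Ccng1 at 79.9 and 91.5 and Ppm1d at 16.6 and 18.6. In set 3 the siRpl11 library had 19.2% of the Rpl11 and Trp53 at 274% of siNT, and the siRpl14+siRpl11 library had 23.7% and 234%. Fewer than 6 libraries in a table received siRpl11, so no correlation was computed.

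Over the 6 libraries of sets 1 and 2 that received siRpl14, no correlation of a gene with remaining Rpl14 passed its test. The correlation of log2 levels with log2 Rpl14 was r = -0.89 for Trp53 (exact permutation p = 0.0653, 0.181 after Benjamini-Hochberg adjustment over the 5 genes; Spearman rho = -0.49, exact permutation p = 0.356). It was r = -0.10 for Mdm2 (exact permutation p = 0.860; rho = -0.26, p = 0.658). For Mdm4, Ccng1 and Ppm1d r was -0.75, -0.21 and -0.23 (exact permutation p = 0.0722, 0.714 and 0.649), and the smallest p that 6 libraries allow is 0.00278. Without the 2 libraries farthest from the median Rpl14, siRpl14 replicate 1 and siRpl14+siRpl11 replicate 1 of set 1, r over the remaining 4 was 0.98 for Trp53, -0.98 for Mdm2, -0.90 for Mdm4, -0.94 for Ccng1 and -0.99 for Ppm1d. The sign for Trp53 and the weak r of Mdm2, Ccng1 and Ppm1d over all 6 thus rest on those libraries. These 6 libraries include the 2 with siRpl11, which are the lowest for Mdm2 and the highest for Trp53. Of the 4 kept, only siRpl14+siRpl11 replicate 2 of set 1 received siRpl11. It had the most Rpl14 of the 4 (524 FPKM, with the others at 354 to 402). The r was taken on FPKM, although mean siNT Rpl14 was 1484 FPKM in set 1 and 1025 in set 2. As a percentage of siNT, this library stood at 35.3% of Rpl14, with the others at 27.1 to 35.1%. It also had the least Mdm2 (121 FPKM) and the most Trp53 (428). The r over these 4 therefore cannot tell remaining Rpl14 from the presence of siRpl11.

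**Figure D4:**
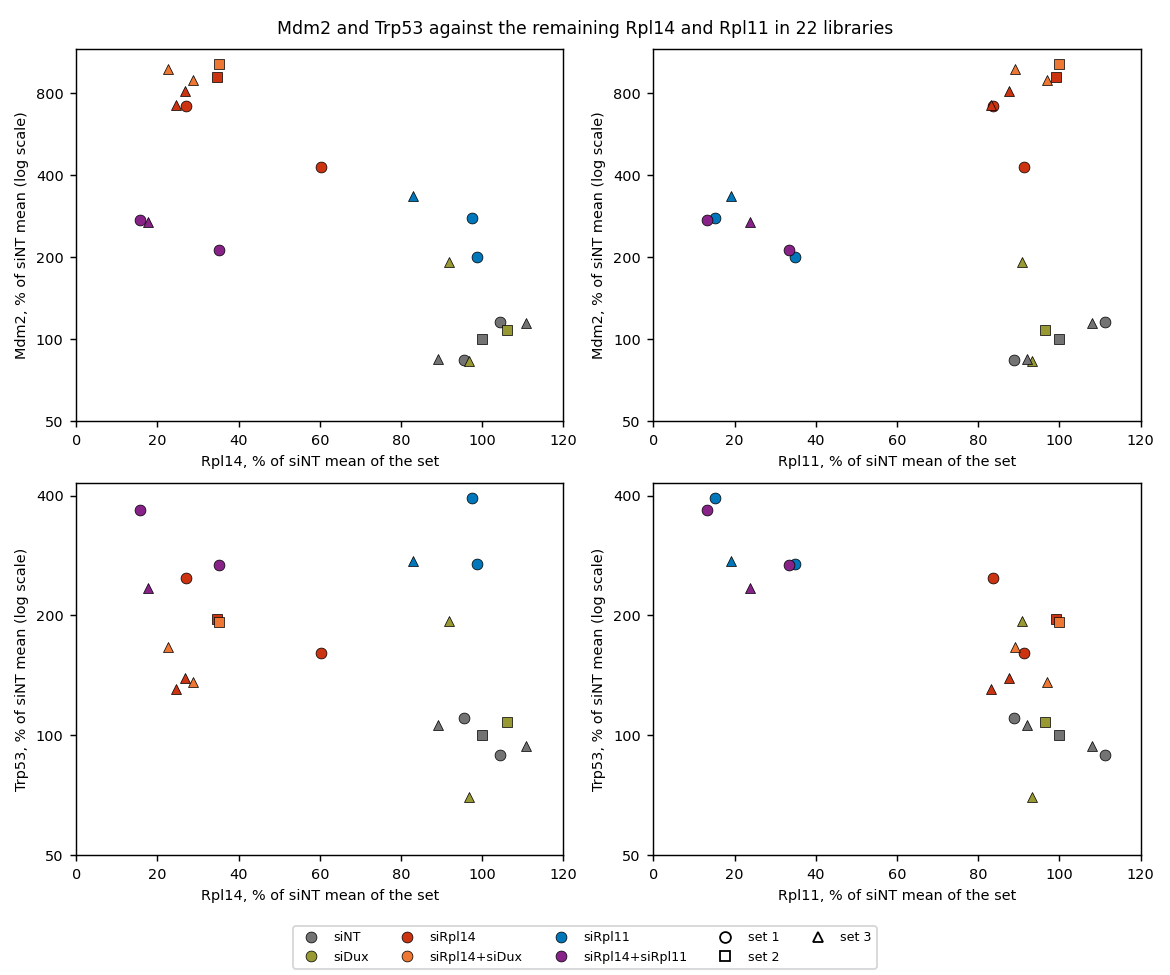
Mdm2 (top) and Trp53 (bottom) as a percentage of the siNT mean of the set, on a log axis, against the remaining Rpl14 (left) and Rpl11 (right) as a percentage of siNT, on a linear axis, for all 22 libraries; colour gives the siRNAs and shape the set. The libraries at 15.6 to 35.3% of Rpl14 split by siRpl11: Mdm2 is at 722 to 1024% without it and at 214 to 274% with it.

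The rest of the pathway was read from lists of genes around these 5, written with earlier results of these data known. Of 30 p53 targets outside the 5 genes, all tested, 20 rose and 3 fell with siRpl14 in set 1, where 31.5% of all genes passed, with a median of 0.85 against 0.03 over all genes. Perp, a membrane protein of p53-dependent cell death, rose by 3.38 ± 0.36 (SE; limma, adjusted p = 0.00166), and Fas, a death receptor, by 3.01 ± 0.26 (limma, adjusted p = 0.000975). The DNA repair genes Ddb2 and Xpc fell by 0.80 and 0.63 on the log2 scale (limma, adjusted p = 0.0120 and 0.00984). With siRpl11, 9 rose and 5 fell (median 0.21), and 14 of 30 is close to the 44.3% of all genes that passed there. With siRpl14+siRpl11, 12 rose and 4 fell (median 0.41), where 41.6% of all genes passed. Against siRpl14, the double knockdown had 10 of the 30 lower and 0 higher, as it had Mdm2 lower: Sfn, Perp, Fas, Dcxr, Tap1, Btg2, Apaf1, Gdf15, Ercc5 and Sesn1, by 0.62 to 2.11 on the log2 scale. Of all genes 7.24% passed in that comparison, and 802 of those 878 were lower too. In set 3, 3 of 29 tested rose with siRpl14 and 0 fell, where 0.66% of all genes passed.

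Partners and relatives of p53 moved with siRpl14 in set 1 as well. Of the 6 tested of 7 in that list, 5 rose and 0 fell, where 31.5% of all genes passed. Trp73, a p53 relative, rose by 1.98 ± 0.29 (SE, limma, adjusted p = 0.00417). Trp53inp1, a p53-induced nuclear protein that is also counted among the targets, rose by 1.79 ± 0.26 (limma, adjusted p = 0.00414). With siRpl11, 2 of the 6 rose, where 44.3% of all genes passed. With both siRNAs 3 rose, where 41.6% did, so neither count is far from the share of all genes. Ppp1r13b, whose protein ASPP1 directs p53 to death genes, was the 1 of the 6 that fell when siRpl11 was added to siRpl14. It fell by 0.68 on the log2 scale (limma, adjusted p = 0.0484), where 7.24% of all genes passed. In set 3 Trp53inp1 was the 1 of 6 that rose with siRpl14 (2.00 ± 0.20, limma, adjusted p = 0.00814), where 0.66% of all genes passed.

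Enzymes that mark or unmark p53 were read from 3 further lists. Among 9 ubiquitin ligases in the table (of 10 listed, 1 of which is an older symbol of another), 3 rose with siRpl14, where 31.5% of all genes passed: Siah1b by 1.41 ± 0.20, Rchy1 by 0.92 ± 0.18 and Ube4b by 0.48 ± 0.12 (SE; limma, adjusted p = 0.00399, 0.00966 and 0.0233). With siRpl11 3 of the 9 rose, where 44.3% of all genes passed. Siah1b and Rchy1 were among them, by 1.22 and 0.97 (limma, adjusted p = 0.00454 and 0.00577). With both siRNAs these 2 rose by 1.24 and 0.99 (limma, adjusted p = 0.00503 and 0.00628), and neither passed between the knockdowns. Of 5 deubiquitinases, 2 rose with siRpl14, where 31.5% of all genes passed. These were Usp7, which acts on Mdm2 and p53, and Usp4, by 0.61 and 0.57 (limma, adjusted p = 0.00844 and 0.00771). With siRpl11, 1 of the 5 rose and 1 fell, where 44.3% of all genes passed. With both siRNAs all 5 passed, 4 higher and 1 lower, where 41.6% of all genes did. Of 11 kinases and acetylation enzymes, 2 rose with siRpl14, where 31.5% of all genes passed. These were the acetyltransferase genes Crebbp and Ep300, by 0.97 and 0.56 (limma, adjusted p = 0.00380 and 0.0470). With siRpl11, 3 of the 11 rose and 1 fell, where 44.3% of all genes passed. With both siRNAs 2 rose and 1 fell, where 41.6% did. Each of these counts of the 11 lies below the share beside it. No gene of these 3 lists passed when siRpl11 was added to siRpl14, where 7.24% of all genes passed. In the 3 lists 0, 1 and 1 genes had an unadjusted limma p under 0.05 there. The share of all genes under that unadjusted value is not given here.

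The next list holds genes of inhibitors of Mdm2 and of nucleolar factors. Of the 6 tested, 2 passed in siRpl14 against siNT (31.5% of all genes did), 3 in siRpl11 against siNT (44.3%), 4 in siRpl14+siRpl11 against siNT (41.6%) and 2 in siRpl14 against siRpl11 (13.4%). Cdkn2a, whose Arf product inhibits Mdm2, and Mybbp1a, a nucleolar binder of p53, rose with siRpl14 by 0.94 ± 0.19 and 0.49 ± 0.10 (SE; limma, adjusted p = 0.0117 and 0.0119). With siRpl11, 3 rose: Mybbp1a by 0.75, Gnl3, which encodes nucleostemin, by 0.60, and Npm1, which encodes nucleophosmin, by 0.85 (limma, adjusted p = 0.00283, 0.00321 and 0.00291). Npm1 was named after its values were seen. Both Gnl3 and Npm1 were lower in siRpl14 than in siRpl11, by 0.45 and 0.59 on the log2 scale (limma, adjusted p = 0.0145 and 0.0164), which is the reverse of the order of Mdm2 in these groups. Gnl3 rose when siRpl11 was added to siRpl14, by 0.37 ± 0.09 (limma, adjusted p = 0.0425).

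The genes whose pattern was most like each of the 5 were ranked by Pearson r of log2(FPKM + 1) over the 12 libraries of sets 1 and 2, among 8252 genes with a mean of at least 5 FPKM there. These r values are a description of libraries that share siRNAs and controls. Closest to Mdm2 were Ptk7 (r = 0.993; 0.893 over the 10 libraries of set 3), Ltb4r1 (0.991; constant in set 3), Trp53inp1 (0.990; 0.966), Eng (0.990; 0.428) and Trp73 (0.990; 0.4501). Closest to Trp53 were Smn1 (0.995; 0.413 in set 3), Thoc3 (0.993; -0.0248) and Zfp280d (0.992; 0.409), and closest to Mdm4 were Ensa (0.918; -0.692), Nup62cl (0.902; -0.367) and Dnajc5 (0.896; 0.0146). Those of Ccng1 were Tusc2 (0.989; 0.704), Fam83d (0.987; 0.690) and Nmt1 (0.985; 0.575), and those of Ppm1d were Dffb (0.992; 0.731), Nt5c2 (0.992; 0.167) and Usp19 (0.988; -0.0485). In set 3 the highest of these r were those of Trp53inp1 and Ptk7 with Mdm2. Among the 5 genes, Mdm2, Ccng1 and Ppm1d were alike (r from 0.940 to 0.974 in sets 1 and 2, from 0.638 to 0.861 in set 3). Trp53 and Mdm2 stood at r = 0.585 and 0.426. Mdm4 had r from -0.52 to -0.02 with the other 4 in sets 1 and 2, but from 0.10 to 0.48 in set 3.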

How the data were processed

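The authors deposited FPKM values per gene in 2 tables. Per the submitters' processing notes the tools were STAR and Cuffnorm on mm9; neither the versions nor the annotation, strand setting or normalization is recorded in the sources used here. Libraries were made with a stranded mRNA kit, per the labels' protocols. No library column was left unused (0), and no 2 libraries were identical. Tests were made within a table.

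Sets 1 and 3 (8 libraries each) were each fitted on log2(FPKM + 1), a scale that understates changes of low genes, with trended and robust moderation (limma 3.58.1 and statmod 1.5.0, under R 4.3.3). A gene was kept if 2 libraries or more reached 1 FPKM (12129 and 13189), with Benjamini-Hochberg adjustment over all of them at 0.05. Set 2 was not tested. The script was tested on simulated data.

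Named genes are the 5 genes, the siRNA targets, those most alike to each, and, per list, the 2 largest rises and falls with siRpl14 and any called in siRpl14+siRpl11 against siRpl14. Members and lists were chosen with earlier results of these data known. The main fits did not pair libraries by replicate number. Deviations of same-numbered libraries in set 1 correlated at r = 0.50 between siRpl11 and siRpl14. Against siRpl14+siRpl11 they stood at -0.50 for siRpl11 and -0.49 for siRpl14. With siNT they ran from -0.24 to 0.25, and in set 3 from 0.01 to 0.04.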

Additional observations from a re-analysis of the deposited data

Results flagged for a closer look

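The effect of siRpl14 on Mdm2 differed between cells with and without siRpl11 by a test of the difference itself. In set 1 the interaction was -2.44 on the log2(FPKM + 1) scale (SE 0.39; limma, adjusted p = 0.0258): siRpl14 added to siNT raised Mdm2 by 2.48, while siRpl14+siRpl11 had 156 and 121 FPKM against 114 and 159 with siRpl11 alone. Over the alternative fits the adjusted p ran from 0.00615 to 0.104 (limma).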

How the results depend on the processing

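Over the 5 genes, each comparison and each alternative, 715 of 800 results kept their side of the threshold. A call was lost in 63, gained in 22, and 0 turned the sign of a called value. The 715 include results called in neither fit, and some of these changed direction. Mdm2 with siDux in set 3 ran from -0.23 to 0.92 when 1 library was left out. The 800 hold calls and non-calls alike, so they do not give the share of calls that held. Each group has 2 libraries at most, the depth is unknown, and set 3 resolves low values poorly, which limits what its fits call.

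In set 1, the number of the 5 genes called (1, 2 and 1 as reported in siRpl14+siRpl11 against siRpl14, siRpl14 against siRpl11 and the interaction) was 0 and 1 in the first pair with no filter, 0 and 0 with median-ratio rescaling, and 0 and 1 with quantile normalization, while the interaction had 2 under both rescalings and 3 with sets 1 and 2 in 1 fit. Mdm2 in siRpl14+siRpl11 against siRpl14 had limma adjusted p = 0.0718, 0.0765 and 0.0687 in these 3 settings, and 0.0170 in the joint fit; Ccng1 in siRpl14 against siRpl11 had 0.0717, 0.0872 and 0.0568, and Mdm2 there 0.0536 under median-ratio rescaling. Ppm1d passed in the interaction under median-ratio (0.0452) and quantile (0.0424) scaling. Over all genes, siRpl14+siRpl11 against siRpl14 called 878 as reported, 491 with a stricter filter, 470 with quantile normalization and 1444 in the joint fit. siRpl14 against siRpl11 called 1628, then 979 with the stricter filter and 988 with quantile normalization, and siRpl14 against siNT called 3822, then 5904 in the joint fit. The interaction called 544, then 313 with no filter, 264 with the stricter filter and 1811 in the joint fit.

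Scaling moved the share of called genes that were higher. Under median-ratio rescaling and quantile normalization it went from 36.0% to 55.7% and 51.7% in siRpl11 against siNT, from 39.8% to 54.0% and 52.4% in siRpl14+siRpl11 against siNT, from 8.66% to 24.9% and 22.8% in siRpl14+siRpl11 against siRpl14, and from 89.2% to 54.6% and 65.4% in siRpl14 against siRpl11.

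In set 3, siRpl14 against siNT called 2 of the 5 genes and 87 genes, against 1 and 54 with no filter and 0 and 36 with plain moderation; Ccng1 was at 0.0529 with no filter (limma, adjusted p). siRpl14+siDux against siNT called 1 of the 5 genes, and 2 with a stricter filter and both rescalings. Against siRpl14 it called 2 genes, then 16 with a pseudocount of 0.1, 10 with the stricter filter and 19 with plain moderation. siDux against siNT called 1 gene, 3 with plain moderation and 2 with all 10 libraries in 1 fit.

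With the replicate number as a block, 0, 1 and 0 of the 5 genes and 539 and 27 genes (siRpl14+siRpl11 against siRpl14, and interaction) were called in set 1, Mdm2 in the interaction standing at an adjusted p of 0.0522 (limma), in siRpl14+siRpl11 against siRpl14 at 0.0689 and Ccng1 in siRpl14 against siRpl11 at 0.0685. In set 3 the replicate block gave 0 genes for siDux against siNT, 2 of the 5 genes for siRpl14+siDux against siNT, with Ccng1 at 0.0381, and 1 gene for siRpl14+siDux against siRpl14. It changed no other call of the 5 genes.

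Leaving out 1 library at a time in set 1 gave 752 to 3851 genes and 2 to 4 of the 5 in siRpl14 against siNT, 1778 to 5592 and 1 to 4 in siRpl11 against siNT, 1307 to 5255 and 1 to 4 in siRpl14+siRpl11 against siNT, 79 to 670 and 0 to 2 in siRpl14+siRpl11 against siRpl14, 379 to 1380 and 0 to 3 in siRpl14 against siRpl11, and 2 to 1199 and 0 to 3 in the interaction. In set 3 it gave 8 to 45 genes and 0 to 1 of the 5 in siRpl14 against siNT, 26 to 90 and 0 to 1 in siRpl14+siDux against siNT, 0 to 0 genes in siDux against siNT and 0 to 3 genes in siRpl14+siDux against siRpl14. The lone library left in a group is then assumed to vary like the other groups. The relations to remaining Rpl14 kept their side of the threshold on the linear scale.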

Other observations

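Wrap53, chosen after its values were seen, lies head to head with Trp53 on the other strand, with 103 bases between the 2 genes in GENCODE M21. Its level in set 1 was 11.1 and 12.2 FPKM in siNT, 28.6 and 39.9 with siRpl14, 16.2 and 17.5 with siRpl11, and 19.6 and 18.3 with siRpl14+siRpl11. In set 1 it was highest with siRpl14, as Mdm2 and Ppm1d were and Trp53 was not. It rose with siRpl14 by 1.46 ± 0.16 (SE; limma, adjusted p = 0.00165), and siRpl14+siRpl11 was lower than siRpl14 by a log2 change of -0.80 (limma, adjusted p = 0.0233). In set 2 it was at 14.1 FPKM in the siNT library and 13.6 in that with siDux, against 43.5 after siRpl14 and 48.7 with siRpl14+siDux. In set 3 that order was not kept: the siRpl11 library, at 4.85 FPKM, lay between the siRpl14 libraries at 8.28 and 4.42, and Wrap53 was listed at 0 in both siNT libraries and in the siRpl14+siRpl11 library. No exon of the 5 genes overlaps an exon of another gene in that annotation, but the authors' own annotation is not given in the sources used here.

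Of the 30 listed p53 targets outside the 5 genes, 22 have a RefSeq start window. Among these 22, 6 hold the p53 consensus decamer within 250 bases upstream, where 8.20% of all genes with a window do. The count was not tested, and a match is not a measured binding site.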
